A study of Mus musculus with 2 samples.

Results

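The 9 genes described here encode proteins of the red cell surface: band 3 (Slc4a1), the Rh proteins Rhag and Rhd, the Kell protein Kel and its partner Xk, glycophorin C (Gypc), the adhesion proteins Icam4 and Ermap, and the water channel Aqp1. They were taken as a named list and matched by symbol to mouse GENCODE M21, and all 9 were found among the 43346 Ensembl gene rows measured. Their RNA was measured by polyA-selected, paired-end RNA-seq in G1E-ER4 cells, an immortalised mouse erythroid line. Its parent line G1E lacks the transcription factor GATA1, which G1E-ER4 regains as a fusion with part of the estrogen receptor, and estradiol turns that fusion on and starts maturation. The study's samples used here are 2 libraries of 1 group, both from cells given 17beta-estradiol at 10 nM for 14 h. They are numbered as biological replicates 1 and 2 but name a single biosample record, and part of their spread may be technical. No untreated cells were analysed here, so every value is a level at 14 h or a difference between these libraries, not a response to estradiol.

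Red cell blood groups are inherited differences in proteins and sugars exposed on the cell surface, and many of the carrier proteins have a task of their own. Band 3 exchanges chloride for bicarbonate and is the centre of a membrane complex that holds the Rh proteins and, through ankyrin and protein 4.2, grips the spectrin skeleton. Glycophorin C ties the membrane to the same skeleton at another point, through protein 4.1 and the p55 protein Mpp1.

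The expected counts (fragments assigned to genes, which need not be whole) totalled 38395479 for replicate 1 and 60097379 for replicate 2. A count of 0 allows up to 3 counts, which is 0.0781 CPM (counts scaled to a total of 1000000) in replicate 1 and 0.0499 in replicate 2. These limits and all intervals below cover counting error only. The erythroid label was checked against markers. Of the erythroid identity genes, 10 of 10 reached 1 TPM (a level per transcript length, scaled to a total of 1000000) in both libraries. Among the other markers, 0 of 10 granulocyte and macrophage, 0 of 8 endothelial and 0 of 8 lymphoid ones did. Gata1 is among the erythroid identity genes, and its level may include RNA of the introduced fusion. The endothelial genes Pecam1, Cdh5 and Tek and the myeloid genes Elane, Itgam and Lyz2 were listed at 0 TPM in both. The highest endothelial marker was Eng, at 1.54 TPM in replicate 1 and 0.88 in replicate 2. Megakaryocyte genes, of the lineage closest to red cells, reached 1 TPM for 5 of 10, with a summed level of 78.2 TPM in replicate 1 and 81.9 in replicate 2. Erythroid identity genes summed to 33612 TPM in replicate 1 and 84751 in replicate 2, and 7 of 10 differed between the libraries by the test described below, 5 higher in replicate 2 and 2 higher in replicate 1, beside 41.4% of all genes tested (24.3% and 17.1%).

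Promoter sequences of the members come first, because the estradiol switch of this line acts through GATA1, a factor whose family binds DNA around the letters GATA. RefSeq windows on GRCm38.p6, from 250 bases before to 50 bases after a gene's start, were found for 7 of the 9 genes: Rhag, Rhd, Kel, Xk, Ermap, Icam4 and Aqp1. Each window was searched on both strands for the GATA-type forms AGATAA, first, or TGATAA, second, and for the CACCC-type motif CCNCNCCC (the kind of sequence that Krüppel-like factors bind), counting overlapping matches. The 250 bases before the start are printed 5′ to 3′ on the gene's own strand, with matches of either type in capitals, for the 5 genes with a GATA-type match and for Aqp1, the member at the lowest level.

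Rhag (chr17:40810899-40811148, plus strand): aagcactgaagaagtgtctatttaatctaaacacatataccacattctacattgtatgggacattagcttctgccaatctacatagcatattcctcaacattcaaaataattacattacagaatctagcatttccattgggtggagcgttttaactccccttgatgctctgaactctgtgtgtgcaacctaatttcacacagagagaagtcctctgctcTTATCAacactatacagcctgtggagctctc

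Rhd (chr4:134864286-134864535, plus strand): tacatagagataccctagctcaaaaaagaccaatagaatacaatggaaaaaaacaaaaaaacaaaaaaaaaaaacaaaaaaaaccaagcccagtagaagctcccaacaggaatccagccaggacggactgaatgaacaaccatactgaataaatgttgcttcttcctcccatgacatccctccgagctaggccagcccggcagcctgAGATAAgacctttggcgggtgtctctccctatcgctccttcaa

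Kel (chr6:41704326-41704575, minus strand): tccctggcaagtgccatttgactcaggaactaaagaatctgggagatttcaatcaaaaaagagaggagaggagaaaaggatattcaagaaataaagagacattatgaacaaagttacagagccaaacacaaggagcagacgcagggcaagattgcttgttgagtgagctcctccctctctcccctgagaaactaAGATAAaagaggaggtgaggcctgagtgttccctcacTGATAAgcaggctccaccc

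Ermap (chr4:119189996-119190245, minus strand): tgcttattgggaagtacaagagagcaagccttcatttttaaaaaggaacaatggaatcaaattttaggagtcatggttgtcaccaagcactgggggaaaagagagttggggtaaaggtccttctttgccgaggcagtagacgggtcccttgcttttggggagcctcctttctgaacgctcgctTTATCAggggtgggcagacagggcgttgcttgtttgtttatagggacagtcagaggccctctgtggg

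Icam4 (chr9:21029182-21029431, plus strand): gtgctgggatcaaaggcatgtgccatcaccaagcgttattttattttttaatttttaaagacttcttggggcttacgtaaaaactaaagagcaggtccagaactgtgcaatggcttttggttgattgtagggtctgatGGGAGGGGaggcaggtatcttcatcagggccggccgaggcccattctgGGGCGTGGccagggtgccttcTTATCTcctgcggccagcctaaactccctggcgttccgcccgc

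Aqp1 (chr6:55336049-55336298, plus strand): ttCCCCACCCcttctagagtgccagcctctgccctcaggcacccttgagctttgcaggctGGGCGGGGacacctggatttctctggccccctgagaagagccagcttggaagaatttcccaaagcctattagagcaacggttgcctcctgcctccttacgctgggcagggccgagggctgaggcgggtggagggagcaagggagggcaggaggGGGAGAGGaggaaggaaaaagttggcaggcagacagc

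A GATA-type match was present in 5 of the 7 windows, against 18.6% of all 32851 windows of the same length. The matches began 31 bases upstream of the start in Rhag, 43 in both Rhd and Icam4, 67 in Ermap, and 56 and 19 in Kel, whose window held both forms. The form AGATAA occurred in 11.2% of all windows, and the form TGATAA in 9.05%. The Xk and Aqp1 windows held neither. A CACCC-type match was present in 4 of the 7 windows (Xk, Aqp1, Icam4 and Rhd), against 49.5% of all windows, and Icam4 and Rhd held both types, as did 5.73% of all windows. The CACCC-type match of Rhd lies after the start, outside the bases printed above. Of the 13 overlapping CACCC-type matches in the Xk window, 10 lay in a single run of G. A match is a description of letters; binding was not measured, and the libraries do not show which start was used.

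**Figure D1:**
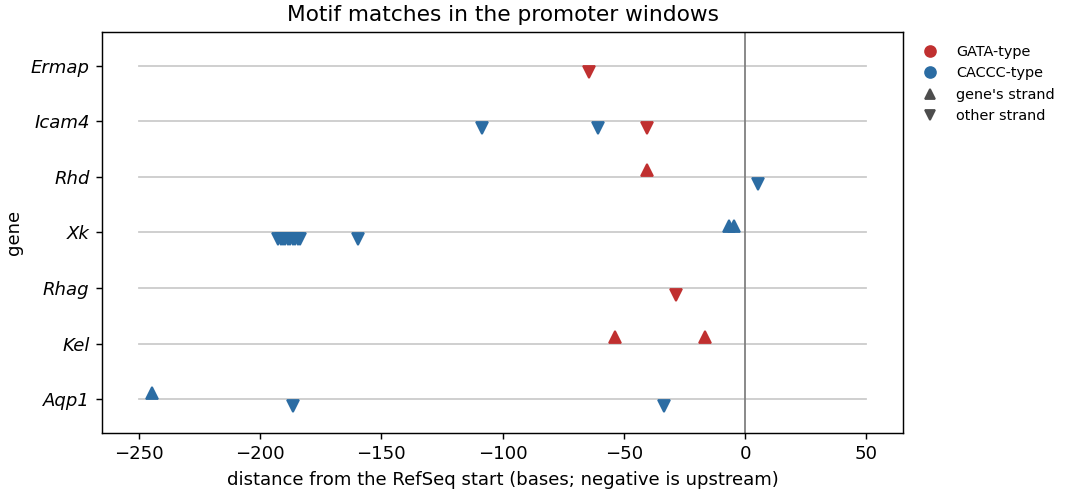
Positions of GATA-type (red) and CACCC-type (blue) matches along the promoter windows of 7 members, in bases from the RefSeq start; triangles point up for the gene's strand and down for the other. The GATA-type matches of 5 genes lie between 67 bases upstream and the start, and Xk and Aqp1 have none.

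Of the 9 genes, 8 were at 1 TPM or more in both libraries, and 37.6% of the 21461 nuclear protein-coding genes were. Gypc and Ermap were at 50 TPM or more in both, a level reached by 9.05% of those genes. Aqp1 was the member under 0.1 TPM in both libraries, as were 52.4% of nuclear protein-coding genes. Together the 9 genes made up 302.48 TPM of replicate 1 and 435.99 TPM of replicate 2. Counts of all 9 were whole numbers in both libraries (within 0.005), as were those of 86.9% of tested genes, and the deposited posterior SD of each member's count was 0.

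Band 3, the anion exchanger and the most abundant protein of the mature red cell membrane, is encoded by Slc4a1 (ENSMUSG00000006574.11, GRCm38 chromosome 11, 102348824 to 102366203, minus strand). Slc4a1 was at 23.8 TPM (3119 counts) in replicate 1 and 37.1 TPM (8596 counts) in replicate 2, a mean of 30.4 ± 9.44 (SD, n = 2). At 14 h it was 3256th of the 21461 nuclear protein-coding genes by mean TPM. Its closest relative in the table, the anion exchanger gene Slc4a2, had 32.7 TPM in replicate 1 and 19.7 in replicate 2. Slc4a1 was therefore below Slc4a2 in replicate 1 and above it in replicate 2, and the log2 ratio of their TPM, 0.23 ± 0.97 (SD, n = 2), was not larger than its spread. Of the 10 SLC4 genes, Slc4a1 and Slc4a2 reached 1 TPM in both libraries, and 6 others were under 0.1 TPM in both.

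The anchors of band 3 were at very different levels from it and from each other. Ank1, the ankyrin that links band 3 to spectrin, was at 341 TPM in replicate 1 and 324 in replicate 2, which put it above Slc4a1 by 3.48 ± 0.50 on the log2 TPM scale (SD, n = 2). Epb42, protein 4.2, which sits between band 3 and ankyrin, was at 0.67 TPM in replicate 1 and 0.80 in replicate 2. The log2 TPM ratio of Slc4a1 to Epb42 was 5.16 ± 0.29, so the level of Slc4a1 was above that of Epb42 by more than the spread. Sptb, beta spectrin, was at 682 and 740 TPM in replicates 1 and 2. Car2, the carbonic anhydrase that makes the bicarbonate band 3 carries, was at 440 TPM in replicate 1 and 889 in replicate 2, but its log2 ratio by scaled counts, 0.31, was under the 1.5-fold minimum of the test described below. Of the 14 listed partners of band 3 and the skeleton, 13 were at 1 TPM or more in both libraries, Epb42 being the exception, and 9 were at 50 TPM or more in both.

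Aqp1 encodes the main water channel of the mature red cell and carries the Colton blood group (ENSMUSG00000004655.5, chromosome 6, 55336432 to 55348555, plus strand). It had 4 counts in replicate 1 and 7 in replicate 2. These are 0.104 CPM (exact Poisson 95% interval 0.0284 to 0.267) and 0.116 CPM (0.0468 to 0.240), and 0.05 TPM in each library. Among the 11 aquaporin genes measured, 2 were at 1 TPM or more in both libraries: Aqp11 at 4.19 and 5.86 TPM, and Aqp3, which carries the GIL blood group, at 1.36 and 5.70 TPM. Aqp1 is also made by endothelial cells, whose listed markers summed to 1.61 TPM in replicate 1 and 0.91 in replicate 2, most of it Eng.

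The Rh proteins form a complex with band 3, in which Rhag, the Rh-associated glycoprotein, passes ammonia or carbon dioxide and is needed for Rhd, which carries the Rh antigens, to reach the surface. Rhag (ENSMUSG00000023926.7, chromosome 17, 40811126 to 40840754, plus strand) was at 9.50 TPM (634 counts) in replicate 1 and 9.20 TPM (1093 counts) in replicate 2, a mean of 9.35 ± 0.21 (SD, n = 2). Rhd (ENSMUSG00000028825.7, chromosome 4, 134864536 to 134896172, plus strand) was at 13.4 TPM (556 counts) in replicate 1 and 15.6 TPM (1155 counts) in replicate 2, a mean of 14.5 ± 1.61. Rhd was above Rhag in both libraries, with a log2 TPM ratio of 0.62 ± 0.19 that was larger than its spread. That order belongs to levels per length: the Rhd transcript is 1514 bases and the Rhag transcript 2339, and without division by length the mean log2 ratio of counts was -0.05. Slc4a1 was above Rhag by 1.66 ± 0.49 on the log2 TPM scale. The non-erythroid Rh glycoprotein genes Rhbg and Rhcg were at 0 TPM in both libraries and at 0.11 and 0 TPM, respectively.

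Kel encodes a zinc endopeptidase that cleaves big endothelin, and on the red cell it is joined by a disulphide bond to Xk, a lipid scramblase that carries the Kx antigen. Kel (ENSMUSG00000029866.9, chromosome 6, 41686330 to 41704339, minus strand) was at 4.17 TPM (224 counts) in replicate 1 and 3.39 TPM (391 counts) in replicate 2, a mean of 3.78 ± 0.55 (SD, n = 2). Xk (ENSMUSG00000015342.6, chromosome X, 9272756 to 9313250, plus strand) was at 15.0 TPM (2246 counts) in replicate 1 and 13.8 TPM (3704 counts) in replicate 2, a mean of 14.4 ± 0.80. The partners were thus not at equal RNA levels: Xk was above Kel in both libraries, by 1.91 ± 0.13 on the log2 TPM scale. Of the 7 neprilysin family genes, to which Kel belongs, the other two at 1 TPM or more in both libraries were Ece2, at 1.64 and 9.35 TPM, and Ece1, at 1.74 and 1.92. Ece1 and Ece2 encode endothelin-converting enzymes. Among the XK family, Xk had the highest mean, followed by Xkr6 at 9.39 TPM in replicate 1 and 3.04 in replicate 2. Vps13a, the lipid transfer protein that binds Xk and is lost in chorea-acanthocytosis, was at 0.17 and 0.35 TPM, which put it below Xk by a log2 TPM ratio of -5.38 ± 0.60.

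Gypc, glycophorin C, carries the Gerbich blood group (ENSMUSG00000090523.2, chromosome 18, 32528322 to 32560034, minus strand). It was the member with the highest mean level, at 148 TPM (9173 counts) in replicate 1 and 82.4 TPM (9059 counts) in replicate 2, a mean of 115 ± 46.7 (SD, n = 2). Its adaptor Mpp1 was at 11.3 and 8.37 TPM, below Gypc by 3.49 ± 0.30 on the log2 TPM scale and by 4.77 over protein-coding transcripts alone. Epb41, protein 4.1, which binds Gypc, spectrin and actin, had 118 TPM in replicate 1 and 126 in replicate 2. Gypc was above Epb41 in replicate 1 and below it in replicate 2, and the log2 TPM ratio, -0.14 ± 0.67, was not larger than its spread. Over protein-coding transcripts alone that ratio was 2.07, because part of the Epb41 level lies on transcripts of other types.

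Icam4 encodes the Landsteiner-Wiener antigen, an adhesion protein that binds integrins and takes part in contact between erythroblasts and macrophages (ENSMUSG00000001014.5, chromosome 9, 21029373 to 21030595, plus strand). It was at 21.8 TPM (504 counts) in replicate 1 and 132 TPM (5400 counts) in replicate 2, a mean of 77.0 ± 78.0 (SD, n = 2). Replicate 2 was higher, and the SD was as large as the mean. Of the other ICAM genes, Icam2 was at 61.4 and 75.2 TPM, Icam5 at 3.56 and 2.39, and Icam1 at 1.02 and 0.68. Icam4 was below Icam2 in replicate 1 and above it in replicate 2, so their order depended on the library (log2 TPM ratio -0.34 ± 1.63). In GENCODE M21 all 1110 exonic bases of Icam4 are covered by exons of Gm47079, an antisense gene on the opposite strand that was not among the genes measured here. Whether the counting used strand is not given in the sources used here, so reads from Icam4 and from an antisense RNA cannot be told apart.

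Ermap, the erythroid membrane-associated protein, belongs to the butyrophilins and carries the Scianna blood group (ENSMUSG00000028644.12, chromosome 4, 119175457 to 119190011, minus strand). It was at 66.4 TPM (3259 counts) in replicate 1 and 142 TPM (11346 counts) in replicate 2, a mean of 104 ± 53.6 (SD, n = 2). Of the 7 butyrophilin family genes measured, Ermap and Btn1a1 reached 1 TPM in both libraries, Btn1a1 at 25.9 and 14.9 TPM. Btn1a1, known as the major butyrophilin of milk fat globules, was higher in replicate 1, the opposite of Ermap.

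**Figure D2:**
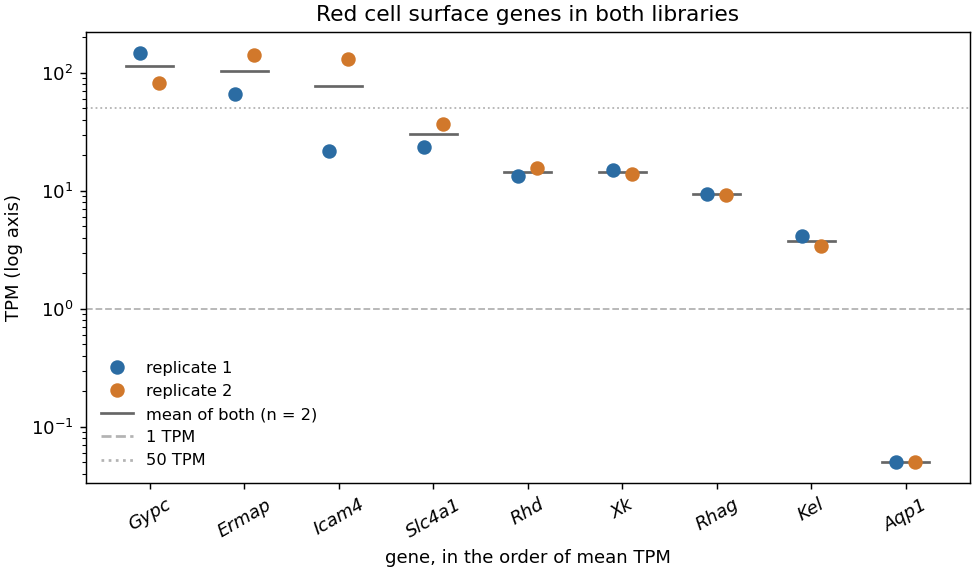
TPM of each member (log axis) in replicate 1 (blue) and replicate 2 (orange), with a grey bar at the mean of both (n = 2) and lines at 1 and 50 TPM. Icam4 shows the widest gap, 21.8 against 132 TPM, while the points for Rhd, Xk, Rhag and Kel nearly coincide and Aqp1 lies at 0.05 TPM.

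In the order of mean TPM (Gypc, Ermap, Icam4, Slc4a1, Rhd, Xk, Rhag, Kel, Aqp1), 4 of the 8 pairs of neighbours differed in the same direction in both libraries by over 2 times the range of the differences. Slc4a1 was above Rhd by 1.03 on the scale of log2(TPM + 0.1), Xk above Rhag by 0.62, Rhag above Kel by 1.29 and Kel above Aqp1 by 4.69. The neighbours among Gypc, Ermap, Icam4 and Slc4a1 did not differ beyond their spread, and nor did Rhd and Xk (a mean difference of 0.0056). The lower part of the order was therefore separated at most steps and the upper part was not. Gypc made up 49.1% of the members' summed TPM in replicate 1 and 18.9% in replicate 2, and Icam4 7.20% and 30.3%.

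The next comparison asked how far each gene's counts differed between the 2 libraries. Each gene had its rounded counts compared by an exact binomial test, two-sided, against library sizes scaled by TMM, with p adjusted by the Benjamini-Hochberg method over the 11230 genes with at least 10 counts in sum. Calls needed a fold of 1.5 or more together with an adjusted p below 0.05. Such a test compares these libraries and says nothing of a condition. Of the 9 members 4 were called, a share of 44.4%, beside 41.4% of all genes tested. Icam4, Ermap and Slc4a1 were higher in replicate 2, as were 24.3% of all genes tested, and Gypc was higher in replicate 1, as were 17.1%. The members' share is near the background.

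Icam4 was 6.49-fold higher in replicate 2 by scaled counts (95% interval 5.93 to 7.13), with an adjusted p at the smallest value written, 1e-300. Ermap was 2.11-fold higher in replicate 2 (2.03 to 2.20), with the same limiting adjusted p by the exact binomial test. Over protein-coding transcripts alone the log2 ratio of Ermap was 1.61, against 1.08 over all its transcripts, so its size depended on the transcript types counted. Slc4a1 was 1.67-fold higher in replicate 2 (1.60 to 1.74; exact binomial test, adjusted p = 6.01e-142). Gypc was 1.67-fold higher in replicate 1 (1.62 to 1.72; exact binomial test, adjusted p = 5.07e-259). The intervals of Slc4a1 and Gypc lie on opposite sides of no change, so these genes differed between the libraries in opposite directions. The ratios were also taken after a smooth trend on the GC content of the leading transcript, fitted across genes, was removed. The log2 ratio of Slc4a1 then went from 0.74 to 0.54, below the 0.58 that equals 1.5-fold, and that of Gypc from -0.74 to -0.89. The corresponding values were 2.64 for Icam4, from 2.70, and 0.88 for Ermap, from 1.08. The Ermap value used the GC content of its short transcript Ermap-202, 55.1%, which had 0 counts in replicate 1. Its transcripts with 13 exons, Ermap-201 and Ermap-206, have 49.2% and 48.9%. The leading transcript of Icam4 has a GC content of 57.6%, that of Slc4a1 55.1% and that of Gypc 51.0%. Icam4 moved least of these genes, so the size of the shift did not follow their order of GC content.

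The other members were not called. Rhd passed the p threshold (exact binomial test, adjusted p = 1.29e-05) with a fold of 1.26 (1.14 to 1.40), under the minimum. Rhag had a log2 ratio of 0.06 (-0.08 to 0.21), Kel of 0.08 (-0.16 to 0.33) and Xk of -0.000425 (-0.08 to 0.08), with adjusted p-values by the exact binomial test of 0.437, 0.559 and 1. The intervals reach 1.15-fold for Rhag and 1.05-fold for Xk. Aqp1, with 11 counts in all, had an interval from -1.89 to 2.31 on the log2 scale, and no difference was detectable at this depth. The median log2 ratio of the members was 0.08 and their median absolute log2 ratio 0.33, beside 0.05 and 0.54 over all genes tested.

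**Figure D3:**
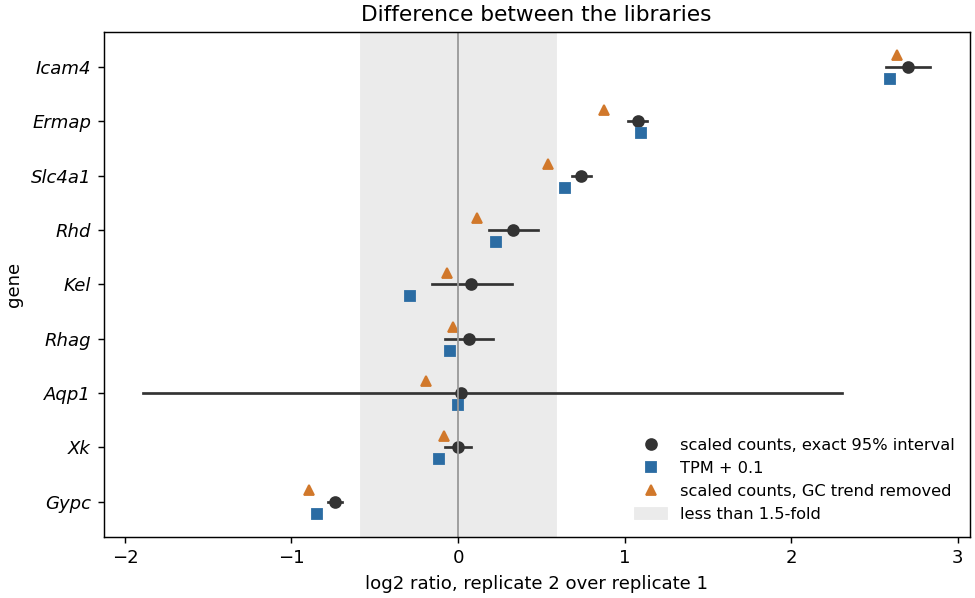
Log2 ratio of replicate 2 over replicate 1 for each member, from scaled counts with exact 95% intervals (black), from TPM + 0.1 (squares) and from scaled counts with a GC trend removed (triangles); the grey band is less than 1.5-fold. Icam4 lies near 2.7 and Gypc at -0.74, and the GC-adjusted value of Slc4a1, 0.54, falls inside the band.

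The erythroid identity genes did not differ between the libraries in 1 direction. By scaled counts, 5 of the 10 were called higher in replicate 2: the globin genes Hbb-bs (log2 ratio 1.98) and Hba-a1 (1.59), the factor genes Gata1 (1.34) and Gfi1b (0.94), and Alas2 (0.87), whose enzyme starts haem synthesis in red cells. The factor genes Klf1 (-0.81) and Tal1 (-0.67) were called higher in replicate 1. Epor (0.38), Hba-a2 (0.03) and Tfrc (-0.0053) were not called. The count of Hba-a1 in replicate 1, 78935.4, was not whole, so part of its fragments was divided among genes. How fragments were divided between Hba-a1 and Hba-a2 was not examined, so their log2 ratios are not taken as separate measurements. Icam4, Ermap and Slc4a1 differed in the direction of the 5 genes higher in replicate 2, and Gypc in that of Klf1 and Tal1. With called genes in both directions, any called gene shares a direction with some of this list, so no likeness is read from it. The counts of Gata1 may include RNA of the introduced fusion, which was not told apart here from the cell's own gene. The part of maturation, library preparation or depth in these differences was not tested.

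Transcript assignments could differ only for members with more than 1 deposited transcript, and their share with a steady leading transcript was near the background. Rhag, Xk, Icam4 and Aqp1 have 1 deposited transcript each, and of the 5 members with more, 4 had the same leading transcript (the one with the largest share of the gene's TPM) in both libraries, beside 76.2% of 6485 genes with at least 2 transcripts and a mean TPM of at least 1. Slc4a1-201, with 20 exons, held 97.8% of the Slc4a1 TPM in replicate 1 and 96.7% in replicate 2. Gypc-203 held 97.0% and 97.8% of the Gypc TPM, and Rhd-201 all of that of Rhd. Kel-201, with 19 exons, held 70.0% of the Kel TPM in replicate 1 and 88.4% in replicate 2. By counts, Kel-201 held 94.6% and 98.9%: the 322-base Kel-205 took 22.05% of the TPM in replicate 1 on 4.91 counts. The log2 ratio of Kel between libraries was -0.29 by TPM + 0.1 and 0.08 by counts.

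Ermap was the member whose leading transcript differed. Ermap-204, 606 bases long, held 64.7% of the gene's TPM in replicate 1 and 0% in replicate 2, and Ermap-202, 724 bases long, held 0% and 60.7%. These short models share 493 exonic bases, and all 724 bases of Ermap-202 and 560 of the 606 of Ermap-204 also lie in the exons of Ermap-206, the 13-exon protein-coding model of 4551 bases. Across the 6485 genes, 8.67% had a transcript whose share differed by 50 points or more. By counts the picture was different: the 2 models with 13 exons, Ermap-201 and Ermap-206, held 75.7% of the Ermap counts in replicate 1 and 70.2% in replicate 2. Their TPM summed to 18.9 and 33.8, a mean of 26.3 ± 10.6 (SD, n = 2), a value chosen after the shares were seen and well below the 104 TPM of all 9 models. The level of Ermap relative to Slc4a1 and Gypc thus rested on how fragments were divided among overlapping models. Between the 13-exon models, Ermap-206 went from 948 counts in replicate 1 to 5191 in replicate 2, while Ermap-201, annotated as a target of nonsense-mediated decay, went from 1520 to 2778. Ermap-201 lies wholly within the exons of Ermap-206, so this split is an estimate too.

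**Figure D4:**
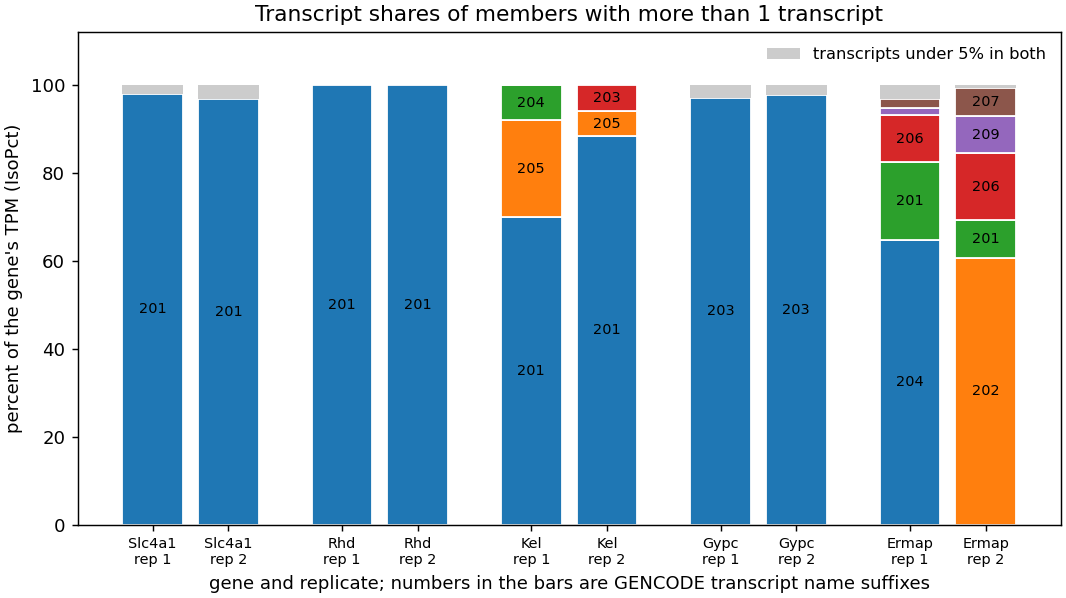
Share of each gene's TPM (percent) given to its transcripts in each replicate, for the 5 members with more than 1 deposited transcript; numbers in the bars are the GENCODE name suffixes, and grey is the sum of transcripts under 5% in both. Slc4a1, Rhd and Gypc have 1 dominant bar in both, and Ermap changes from Ermap-204 to Ermap-202.

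A wider list of 28 other blood group carriers and antigen-making enzymes places the members. Of these 28 genes, 16 were at 1 TPM or more in both libraries, 5 at 50 TPM or more in both, and 9 under 0.1 TPM in both. The highest were Bsg (basigin, Ok antigen) at 1872 TPM in replicate 1 and 1244 in replicate 2, Smim1 (Vel antigen) at 412 and 467, Ache (acetylcholinesterase, Cartwright antigen) at 473 and 398, and Slc29a1 (nucleoside transporter, Augustine antigen) at 73.9 and 272. Each of these 4 had a higher mean than Gypc, the highest of the members. Ackr1, the Duffy chemokine receptor, Slc14a1, the Kidd urea transporter, and Abo, the ABO glycosyltransferase, were at or below 0.04 TPM in both libraries. Of 19 genes of the list that were tested, 6 were called higher in replicate 2 and 5 higher in replicate 1, beside 24.3% and 17.1% of all genes tested. Slc29a1, with a log2 ratio of 1.21 by scaled counts, was among the former. Among the 14 partners of band 3 and the skeleton, all tested, 4 were called, beside 41.4% of all genes tested. These were Gapdh, Add2, Slc2a1 and Tmod1, each higher in replicate 2, as were 24.3% of all genes tested. Gapdh, the glycolytic enzyme that docks on band 3, was at 2230 TPM in replicate 1 and 24671 TPM in replicate 2, and its log2 ratio by scaled counts was 2.70.

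**Figure D5:**
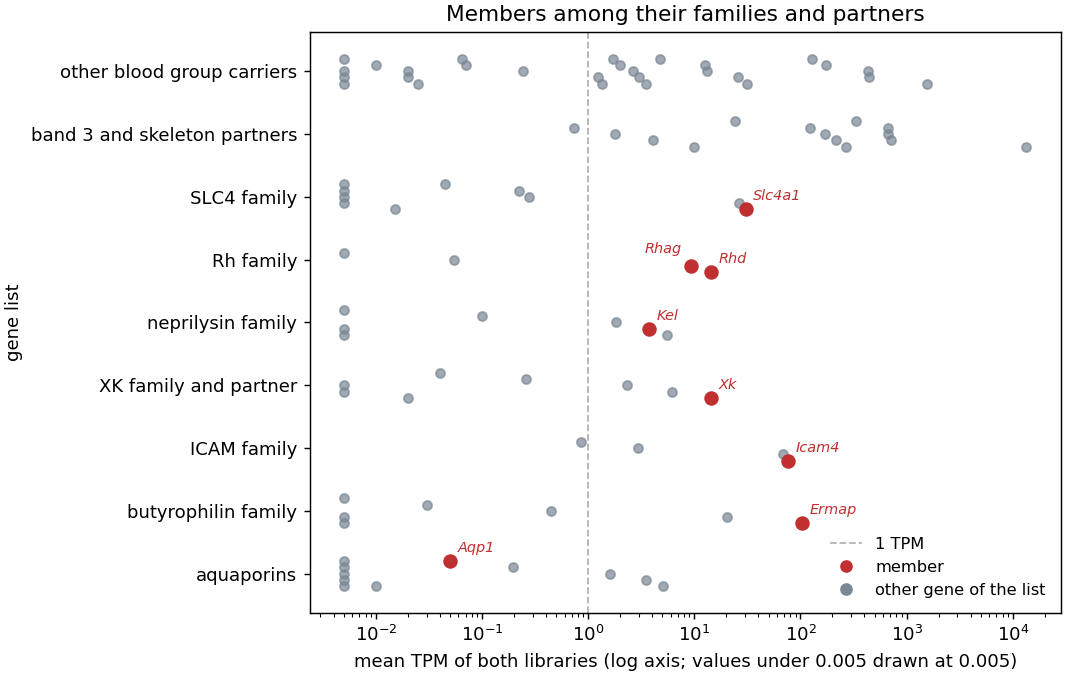
Mean TPM of both libraries (log axis) for the genes of 9 lists, with members in red and other genes in grey; values under 0.005 are drawn at 0.005 and the dashed line is 1 TPM. By this mean Slc4a1, Icam4, Ermap, Xk and Rhd lead their families and Ece2 is above Kel, but in replicate 1 alone Slc4a2 was above Slc4a1, Icam2 above Icam4 and Kel above Ece2; Aqp1 lies below 3 other aquaporins that exceed 1 TPM on average.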

How the data were processed

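PolyA RNA from G1E-ER4 cells was measured in 2 libraries of 1 group. Per the deposited notes the build was mm10 and the annotation GENCODE M4; of the aligner, the quantifier's version and the settings, nothing is stated in the sources used here. The columns have RSEM's names, per the file headers, and the deposited expected counts estimate fragments per gene or transcript. The deposited TPM and FPKM divide them by effective length and depth, so fragments placed on a short transcript raise the level. Isoform percent, as deposited, is the portion of a gene's TPM on 1 transcript. The bounds of the deposited TPM interval, read as a signal unit, lie around the posterior mean TPM and are not reported; 1 of 18 member TPM values lay outside its interval.

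Symbols and coordinates came from GENCODE M21 (GRCm38, the same build) for 42462 of 43346 Ensembl gene rows, and 884 kept their identifier. The 26248 rows naming no gene held 2 and 0 counts, and 97 spike-in rows held 0; both kinds were left out. The share of these rows in the total was therefore negligible. Counts were rounded and tested as described above with TMM from edgeR 4.0.16 (R 4.3.3) and scipy 1.17.1, with 0.5 counts added for folds; genes needed 10 counts in sum. A quasi-likelihood test cannot be made for 1 group of 2. The test was checked on simulated counts that held counting error only, so that check does not cover other spread between the libraries.

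Members and lists were chosen with earlier results of these data known. The text names all members, transcripts at 10% or more, and from each list the 4 highest and up to 3 under 0.1 TPM; some genes that this rule picks are left out, and other list genes and the gene pairs were chosen after their values were seen. Pair ratios are of TPM + 0.1, called larger than the spread if both had 1 sign and their mean was over 2 times the range. Likeness of pattern was not computed, because 2 libraries give none. Protein sequences were not analysed here. Alternatives covered DESeq2 1.42.0 size factors, total-count scaling, TMM without globin genes, posterior mean values, FPKM, protein-coding transcripts only, count filters, the fold minimum, pseudocounts, a GC trend (lowess, statsmodels 0.14.6) and leaving out each library. Some genes of the lists are counted in them but not reported here by name.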

Additional observations from a re-analysis of the deposited data

How the results depend on the processing

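The counts of members expressed and of neighbours separated did not change under any alternative run. Members at 50 TPM or more were 2, and 3 by the mean of both libraries or without replicate 1. That count was not rerun with the 13-exon Ermap models alone, which were at 18.9 and 33.8 TPM, under 50 in both libraries. Members with 1 leading transcript were 7, and 6 at a mean TPM of at least 5. These 7 include Rhag, Xk and Icam4, whose leading transcript cannot change, as each has 1 deposited transcript. The count of members called was 4, and 2 (Ermap and Icam4) at a fold minimum of 2. Under the 7 other alternatives it was 4. Removal of the GC trend was not among these alternatives, and with it the log2 ratio of Slc4a1, 0.54, was under the 0.58 that equals 1.5-fold. Several log2 ratios between libraries changed sign, all of members that were not called. For Aqp1 it was -0.0355 over protein-coding transcripts and -0.19 with the GC trend removed, for Rhag -0.05 by TPM + 0.1, -0.04 by TPM + 1 and -0.03 with the GC trend removed, for Kel -0.29, -0.24 and -0.07 in the same order, and for Xk it was 0.0752 with total-count scaling (exact binomial test, adjusted p = 0.0671, the lowest over its alternatives, the highest being 1) and 0.0050 with posterior mean counts. Total-count scaling moved the median log2 ratio of all tested genes from 0.05 to 0.12. The log2 ratio of Rhd to Rhag was -0.0548 for counts not divided by length, and that of Gypc to Epb41 was 2.07 over protein-coding transcripts; both follow from the lengths and types left in. Leaving out each library in turn, the log2 TPM ratio ran from -0.61 to 0.33 for Gypc to Epb41, from -0.46 to 0.91 for Slc4a1 to Slc4a2 and from -1.49 to 0.81 for Icam4 to Icam2. No paired analysis was possible because there is only 1 group. With 2 libraries, spread cannot be estimated well, and the exact intervals hold counting error only; replicate 2 was 1.57 times as deep, so its low values, such as those of Kel and Aqp1, are the more precise.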
